A study of Bos taurus with 12 samples.

Results

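The genes described here are NLRC5, DRC7 and KIFC3, which lie within 1 Mb of each other on cattle chromosome 18. Their members are the cytosines of chromosome 18 in the deposited site table that carry 1 of these gene symbols, whatever their position relative to the gene. They number 139 of 216990 sites in the table and 139 of the 7261 sites of chromosome 18 (1.91%). KIFC3 holds 94 of them, DRC7 33 and NLRC5 12. The table lists sites that the authors had already selected for a difference between the groups of cows, and the genes were picked with results of the same table known. The difference between the groups is therefore given as a description, with no test, and the comparison tested is whether the genes share a pattern among the cows of a group.

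Blood DNA of 12 dairy cows, 6 subfertile and 6 fertile, was treated with enzymes that leave methylated and hydroxymethylated cytosines as C and turn the others into T, and was then sequenced. The cows came from 1 farm, shared the same conditions and were 3 to 8 years old. Subfertile cows were culled in the year after sampling for reproductive complications not recognised when blood was drawn, and fertile cows were in the herd a year later without such problems. Each value is the percent of calls at 1 cytosine that were methylated in 1 cow, with coordinates on ARS-UCD1.2. No treatment or allele distinguishes the groups in the labels, and each cow is 1 sample numbered 1 to 6 within its group. The column headers mark the cows labelled subfertile with F and those labelled fertile with R. The letters are not explained, so groups were taken from the labels, and each direction below would reverse if the letters meant the opposite. Read numbers per site were not used here, so the depth behind a percent is unknown.

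NLRC5 is a member of the NOD-like receptor family that acts in the nucleus as the transactivator of MHC class I genes, the genes that let a cell show peptides to CD8 T cells. It is expressed in lymphocytes and is induced by interferon gamma. DRC7 is a subunit of the nexin-dynein regulatory complex, which links the outer microtubule doublets of cilia and sperm flagella and regulates the dynein motors that bend them. KIFC3 is a kinesin that moves toward the minus ends of microtubules and is known from epithelial junctions and from transport in cells. Methylation of cytosines in CpG pairs is usually the same on both strands and is usually low in active promoters.

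In the deposited annotation NLRC5 (ENSBTAG00000005413) spans 25044850 to 25102326 of chromosome 18 on the plus strand. DRC7 (ENSBTAG00000008005) spans 25679294 to 25700260, also on the plus strand. KIFC3 (ENSBTAG00000007181) spans 25722016 to 25756803 on the minus strand, so that positions above its end lie upstream of it. The last NLRC5 site lies 613385 bp before the first DRC7 site, and 44581 bp separate the last DRC7 site from the first KIFC3 site. NLRC5 is therefore the distant one of the set.

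Symbols in the table name the nearest gene, which is not always the gene a site lies in. Of the 12 NLRC5 sites, 8 were annotated as distal intergenic, 3 as promoter and 1 as exon, and 10 lie outside the gene's annotated span. The 33 DRC7 sites comprised 15 intron, 8 promoter, 5 3′ UTR, 3 distal and 2 exon sites, and 15 of them lie outside the DRC7 span. In particular, the 5 3′ UTR sites and 2 of the intron sites lie inside ADGRG3, the adhesion receptor gene just before DRC7. The 94 KIFC3 sites comprised 48 intron, 33 distal, 9 exon and 4 promoter sites, and 33 lie outside the KIFC3 span.

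All 12 NLRC5 sites were lower in subfertile cows by the authors' deposited difference, and all 33 DRC7 sites were higher. KIFC3 had both kinds, with 78 sites higher and 16 lower. Over the members 111 of 139 sites (79.9%) were higher, against 52.1% of all deposited sites. Sizes of the authors' deposited difference ran from 30.8 to 47.3 percentage points for NLRC5 with a median of 34.8. They ran from 29.4 to 63.7 points for DRC7, with a median of 45.4, and from 30.2 to 63.6 points for KIFC3, with a median of 47.3. The median over the deposited table was 34.7 points. The smallest member difference, 29.4 points, lies inside the table's smallest of 25.003 points, and sites below that are not analysed here.

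**Figure D1:**
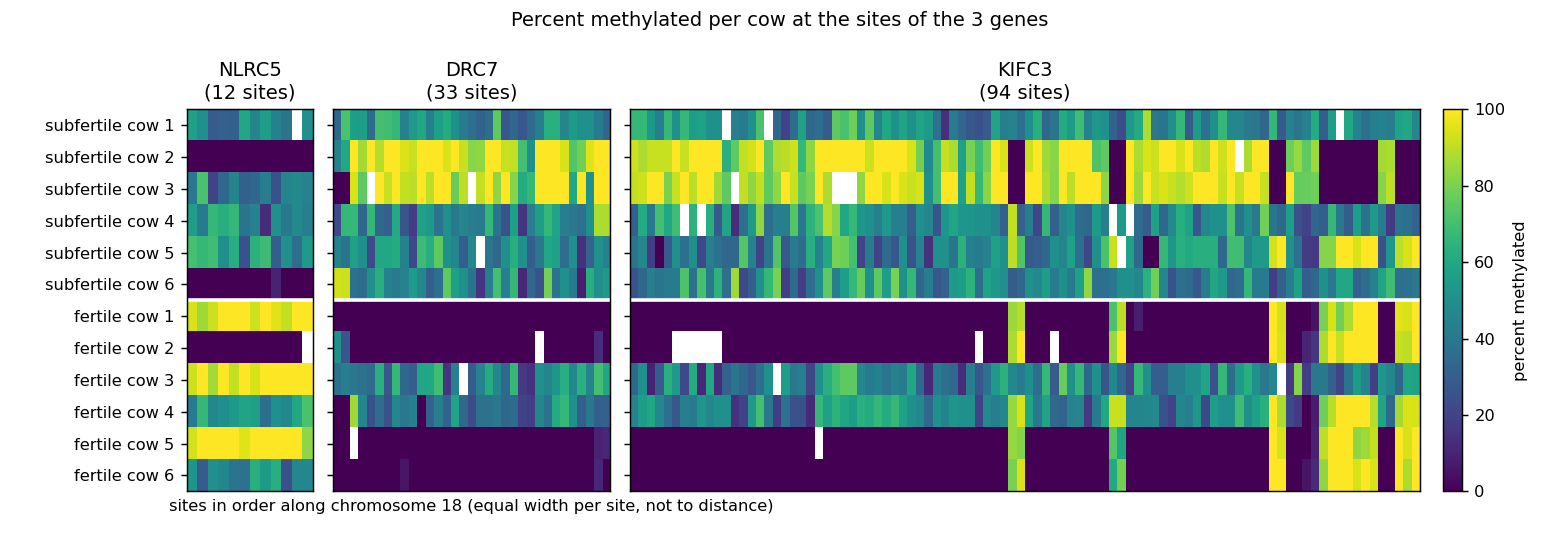
Percent methylated in each of the 12 cows (rows, subfertile cows above fertile cows) at each member site (columns, in order along the chromosome, equal width per site), with colour from 0 to 100% and white where no value is given. NLRC5 is at or near 0 in subfertile cows 2 and 6 and fertile cow 2, whereas DRC7 and most of KIFC3 are at or near 0 in fertile cows 1, 2, 5 and 6 and high in subfertile cows 2 and 3.

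NLRC5 was lower on average in subfertile cows, but the cows of each group were spread over most of the scale. Averaged over its 12 sites, from 25033544 to 25053568, the level was 44.7, 0, 39.9, 47.5, 53.8 and 0.83% in subfertile cows 1 to 6. In fertile cows 1 to 6 it was 95.9, 0, 97.0, 53.2, 97.6 and 45.9%. Subfertile cows 2 and 6 and fertile cow 2 were thus at the bottom of the scale, fertile cows 1, 3 and 5 at the top, and the other 6 cows in the middle. The group means were 31.1 ± 24.2% in subfertile cows and 64.9 ± 39.4% in fertile cows (SD, n = 6 each), a difference of -33.8 points, and the groups overlapped.

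The same 3 levels were seen at every NLRC5 site. Subfertile cow 2 was at 0 at all 12 sites, and fertile cow 2 at all 11 sites where it had a value. Subfertile cow 6 was at 0 at 11 of 12 sites and at 10% at the remaining one. Fertile cows 1, 3 and 5 were above 80% at all 12 sites. The other cows lay from 10 to 80% at each site they had a value for, with a range from 12.5% in subfertile cow 4 to 71.4% in subfertile cow 3 and fertile cow 4. The gene thus separated the cows into the same sets along its whole 12-site stretch.

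The NLRC5 site with the largest deposited difference, -47.3 points, was the promoter cytosine at 25043179, 1671 bp before the gene's start. Its level was 43.8, 0, 25, 50, 30 and 10% in subfertile cows 1 to 6, against 95.7, 0, 100, 50, 100 and 62.5% in fertile cows 1 to 6. The other strand of this CpG, at 25043180, averaged 29.1 ± 22.9% in subfertile cows and 60.4 ± 42.8% in fertile cows (SD, n = 6 each). The single exon site, at 25053568 in exon 3 of 37, averaged 31.9 ± 24.99% in subfertile cows (SD, n = 6) and 80.2 ± 22.5% in fertile cows (SD, n = 5). Fertile cow 2, at 0 at the other NLRC5 sites, had no value there, so the larger gap at this site goes with the loss of that cow. The 8 distal sites, up to 11306 bp before the start, averaged 32.1 ± 25.7% in subfertile cows and 64.5 ± 39.4% in fertile cows, and the 3 promoter sites 28.0 ± 20.6% in subfertile cows and 65.4 ± 40.5% in fertile cows.

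DRC7 was higher in subfertile cows at each of its sites, from before its promoter into its introns. Averaged over its 33 sites, from 25666953 to 25686841, the level was 48.9, 89.7, 83.6, 47.4, 46.4 and 47.9% in subfertile cows 1 to 6. It was 0, 2.79, 45.9, 35.8, 0.66 and 0.51% in fertile cows 1 to 6. Subfertile cows 2 and 3 were high, the other 4 subfertile cows and fertile cows 3 and 4 were in the middle, and fertile cows 1, 2, 5 and 6 were at or near 0. The means were 60.7 ± 20.3% in subfertile cows and 14.3 ± 20.9% in fertile cows (SD, n = 6 each), a difference of 46.4 points. The groups did not overlap, but by a narrow margin, with 46.38% in the lowest subfertile cow and 45.93% in the highest fertile cow. This rests on a pair of sites in an intron of ADGRG3. Over the other 31 DRC7 sites the groups overlapped, with 44.95% in subfertile cow 6 and 46.32% in fertile cow 3.

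The DRC7 site with the largest deposited difference, 63.7 points, was at 25685261 in exon 5 of 18. It stood at 63.6, 100, 100, 66.7, 60.0 and 78.9% in subfertile cows 1 to 6, against 0, 0, 45.5, 37.5, 0 and 0% in fertile cows 1 to 6. In the promoter, 694 bp before the start, the cytosine at 25678600 stood at 61.5, 94.4, 100, 50, 50 and 75% in subfertile cows and at 0, 0, 15.4, 31.2, 0 and 0% in fertile cows. At both sites the lowest subfertile cow was above the highest fertile cow. The promoter site at 25678264 averaged 72.0 ± 22.9% in subfertile cows and 9.80 ± 24.0% in fertile cows, where fertile cow 3 was at 58.8% and the other 5 at 0. The third promoter site among those with the largest differences, at 25680493, averaged 58.1 ± 26.2% in subfertile cows (SD, n = 6) and 6.67 ± 14.9% in fertile cows (SD, n = 5).

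The 5 DRC7 sites in the 3′ UTR of ADGRG3 had the DRC7 levels, at 64.1 ± 22.6% in subfertile cows and 14.1 ± 21.8% in fertile cows (SD, n = 6 each). At 25673723 the level was 69.2, 100, 91.7, 30.8, 60.0 and 43.8% in subfertile cows 1 to 6, against 0, 0, 27.3, 25, 0 and 0% in fertile cows 1 to 6. At 25672534 fertile cow 4 reached 85.7%, above 4 of the subfertile cows, and the means were 68.6 ± 24.0% in subfertile cows (SD, n = 6) and 25.1 ± 38.0% in fertile cows (SD, n = 5). The 8 promoter sites averaged 62.9 ± 23.8% in subfertile cows and 13.0 ± 20.6% in fertile cows, and the 15 intron sites 57.2 ± 16.9% in subfertile cows and 14.8 ± 20.5% in fertile cows. Levels thus differed little between the positions that surround the start of DRC7.

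A pair of DRC7 sites went another way among the cows. They are the strands of 1 CpG at 25666953 and 25666954, in intron 8 of 11 of ADGRG3, 5580 bp before the next DRC7 site. Their mean was 52.4, 51.9, 0, 44.9, 41.7 and 92.8% in subfertile cows 1 to 6, against 0, 38.3, 40.2, 0, 0 and 0% in fertile cows 1 to 6. Subfertile cow 3, high at the other DRC7 sites, was at 0 here, and subfertile cow 6 was the high one. Within groups the pair's cow deviations had r = -0.20 with those of the other 31 DRC7 sites, over 12 cows. Without the pair, DRC7 stood at 92.2 and 89.4% in subfertile cows 2 and 3, from 44.95 to 48.69% in the other 4 subfertile cows, at 46.3 and 38.2% in fertile cows 3 and 4, and at most 0.70% in the other 4 fertile cows.

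KIFC3 held sites that were higher and sites that were lower in subfertile cows, so its average over 94 sites mixes opposite patterns. That average was 57.3 ± 13.4% in subfertile cows and 26.7 ± 16.5% in fertile cows (SD, n = 6 each), a difference of 30.5 points, and the groups overlapped. At the 78 higher sites the level was 49.3, 90.1, 90.6, 48.3, 43.2 and 48.9% in subfertile cows 1 to 6, against 0.17, 0.38, 43.4, 44.1, 0.12 and 0.22% in fertile cows 1 to 6. These are the 3 levels of DRC7 in the same cows. The means over these sites were 61.7 ± 22.3% in subfertile cows and 14.7 ± 22.5% in fertile cows, a difference of 47.0 points, and fertile cows 3 and 4 lay above subfertile cow 5 by less than the spread in either group.

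The higher KIFC3 sites kept this level in each part of the gene. The 46 intron sites averaged 61.7 ± 21.1% in subfertile cows and 14.9 ± 23.0% in fertile cows. The 9 exon sites averaged 62.3 ± 25.3% in subfertile cows and 14.2 ± 22.1% in fertile cows, and the 21 distal sites upstream of the gene 61.4 ± 23.8% in subfertile cows and 14.6 ± 21.6% in fertile cows (SD, n = 6 each). The largest difference among them, 62.4 points, was at 25734938 in intron 3 of 19. There the level was 33.3, 88.2, 83.3, 42.9, 72.7 and 80% in subfertile cows 1 to 6, against 0, 0, 18.2, 0 and 0% in fertile cows 1, 2, 4, 5 and 6, with no value for fertile cow 3. At 25772075, 15.3 kb upstream of the start, it was 50, 100, 100, 50, 62.5 and 60.0% in subfertile cows 1 to 6 and 0, 0, 25, 55.6, 0 and 0% in fertile cows 1 to 6. Fertile cow 4 at that site stood among the subfertile cows. At 25732613 in intron 7 of 19, the means were 73.4 ± 24.8% in subfertile cows and 13.0 ± 19.3% in fertile cows (SD, n = 5 each).

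The 16 lower KIFC3 sites comprised 12 distal sites from 35.5 to 44.7 kb upstream of the start, 2 intron sites and 2 promoter sites. Their mean was 44.3, 0, 0, 44.5, 92.6 and 39.8% in subfertile cows 1 to 6, against 91.1, 95.4, 40.8, 92.6, 89.7 and 92.1% in fertile cows 1 to 6. Subfertile cows 2 and 3, high at the other KIFC3 sites, were at 0 at each of the 16, and fertile cows 1, 2, 5 and 6, near 0 at the other sites, were high. The means were 36.9 ± 34.5% in subfertile cows and 83.6 ± 21.1% in fertile cows (SD, n = 6 each), a difference of -46.8 points with overlapping groups. The largest deposited difference, -63.6 points, was at 25792273, where the level was 28.6, 0, 0, 33.3, 100 and 30.8% in subfertile cows 1 to 6. It was 93.3, 94.1, 87.5, 94.1 and 100% in fertile cows 1, 2, 4, 5 and 6, with no value for fertile cow 3. At the most upstream site, 25801540, the means were 36.2 ± 37.0% in subfertile cows and 92.0 ± 16.9% in fertile cows (SD, n = 6 each).

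The lower sites were not a plain mirror image of the higher ones. In 10 cows the means of both kinds of KIFC3 site added up to between 84.2 and 95.8%. In the other 2, subfertile cow 5 and fertile cow 4, they added up to 135.8 and 136.6%, because both cows were in the middle at the higher sites and high at the lower ones. Within groups the cow deviations of both kinds had r = -0.76 over 12 cows.

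**Figure D2:**
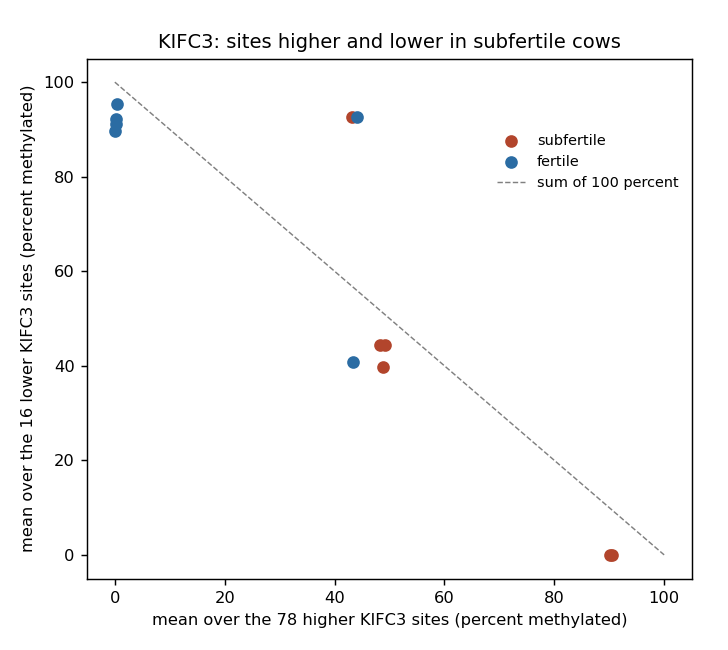
Mean percent methylated of each cow over the 78 higher KIFC3 sites (x axis) and over the 16 lower ones (y axis), with subfertile cows in red and fertile cows in blue and a dashed line where both add up to 100%. Of the 12 cows, 10 lie just under the line, and subfertile cow 5 and fertile cow 4 lie above it at sums of 135.8 and 136.6%.

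The KIFC3 promoter showed both kinds within 21 bp. The strands of the CpG at 25755212 and 25755213 averaged 36.2 ± 35.1% in subfertile cows and 73.4 ± 19.6% in fertile cows. Those of the CpG at 25755231 and 25755232, 18 bp further on, averaged 62.1 ± 25.2% in subfertile cows and 15.6 ± 22.6% in fertile cows (SD, n = 6 each). At 25755231 the groups did not overlap, with 53.3, 100, 100, 57.1 and 50% in subfertile cows 1, 2, 3, 5 and 6, against 0, 0, 21.4, 45.5, 0 and 0% in fertile cows 1 to 6. Subfertile cow 4 had no value at that site. Over both strands of this CpG the groups overlapped, with 35.3% in subfertile cow 4 and 45.5% in fertile cow 4. Averaged over its 4 promoter sites, KIFC3 differed by 3.38 points between the groups, because the opposite pairs cancel. For comparison, the promoter means differed by 49.9 points in DRC7 and by -37.3 points in NLRC5.

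**Figure D3:**
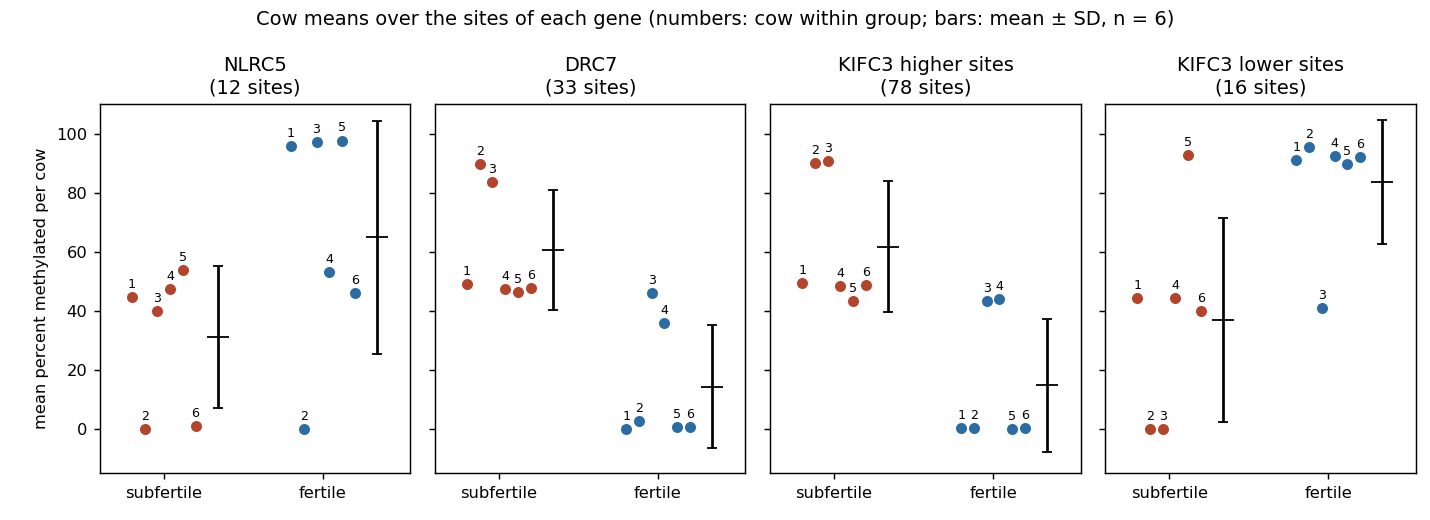
Mean percent methylated per cow over the sites of NLRC5, DRC7 and the higher and lower sites of KIFC3 (y axis), with subfertile cows at left and fertile cows at right in each panel, cows marked by their number in the group, and bars for the mean ± SD of 6 cows. The order of the cows is alike for DRC7 and the higher KIFC3 sites, where subfertile cows 2 and 3 are above 80% and fertile cows 1, 2, 5 and 6 near 0, and different for NLRC5.

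Groups that did not overlap were found at 5 of 33 DRC7 sites (15.2%), 5 of 94 KIFC3 sites (5.32%) and 0 of 12 NLRC5 sites, against 3.1% of all deposited sites. Members were chosen with this contrast known, so nothing is read from these shares. The 10 sites were all higher in subfertile cows, the direction of 1.94% of the deposited sites, against 1.16% for the other direction. Apart from those named above they were the DRC7 sites at 25681741 and 25684259, and the KIFC3 sites at 25735240 and 25792738, which were named after their values were seen, and the KIFC3 site at 25768858, which is among those with the largest differences. At 25792738 the means were 61.8 ± 22.6% in subfertile cows and 6.48 ± 10.2% in fertile cows (SD, n = 6 each).

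Most member sites had a cow at each of the 3 levels. A cow under 10% and a cow over 80% were both present at 12 of 12 NLRC5 sites, 30 of 33 DRC7 sites and 86 of 94 KIFC3 sites, together 128 of 139 (92.1%), against 69.9% of the deposited table. At each of these sites at least 1 further cow lay from 10 to 80%. Exact zeros made up 30.2% of the 1636 member values, against 21.4% in the table, and values from 10 to 80% made up 50.6%, against 42.9%. Values of 100% were fewer among the members, at 9.17%, against 17.5% in the table.

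Strands of the same CpG give a measure of the noise of single values. Both strands were listed for 3 CpGs of NLRC5, 13 of DRC7 and 42 of KIFC3, and the strands of 1 cow differed by a median of 5.83, 5.12 and 5.56 percentage points for these genes. Among middle values the median was 17.3 points in NLRC5, 14.0 in DRC7 and 14.3 in KIFC3, with 90th percentiles of 33.3, 33.3 and 30.6 points. A single middle value is thus noisy, and the 3 levels show best in the gene means.

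Whether the neighbouring genes share their cow pattern was tested on the deviation of each cow from its own group's mean, which takes out the group difference that the sites were selected on. DRC7 and KIFC3 deviated in the same direction in 12 of 12 cows, with Pearson's r = 0.96 (permutation test within groups, 100000 resamples, two-sided p = 0.0034, adjusted over 3 pairs p = 0.010). Spearman's rho was 0.76 (permutation p = 0.013, adjusted p = 0.040). Without subfertile cow 2 and fertile cow 3, the cows farthest from the median DRC7 deviation, r was 0.98 (permutation p = 0.017). The test passed, and its size comes from which cows are above their group's mean.

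The deviations fell into 2 separate clusters. Subfertile cows 2 and 3 and fertile cows 3 and 4 were 21.6 to 31.6 points above their group's mean in DRC7 and 16.2 to 25.6 points above it in KIFC3. The other 8 cows were below it, with deviations from -14.3 to -11.5 points in DRC7 and from -11.2 to -6.09 points in KIFC3. Within these 8 cows, 4 of each group, Pearson's r was 0.074 and rho was -0.11, given without a test because the cows were set apart by their DRC7 values and cover a narrow range of them. Whether the genes vary together within a cluster could therefore not be tested, and the 4 cows above their means are too few for a value of their own. The pooled r rests on which cows fall in which cluster.

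Within single groups the numbers of cows are small. In the 6 subfertile cows r between DRC7 and KIFC3 was 0.99 (exact permutation p = 0.053, adjusted over 6 relations p = 0.158; rho = 0.60, exact p = 0.242). It rested on subfertile cows 2 and 3, without which it was -0.63. In the 6 fertile cows r was 0.94 (exact permutation p = 0.039, adjusted p = 0.158; rho = 0.77, exact p = 0.103). Without fertile cows 3 and 4, the cows farthest from the median, it was 0.96. Fertile cows 1, 2, 5 and 6 were then left, at 0, 2.79, 0.66 and 0.51% in DRC7. In KIFC3 they were at 15.7, 18.1, 15.5 and 15.9%. This 0.96 thus covers a narrow range and rests mainly on fertile cow 2. Neither group passed after adjustment.

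NLRC5 showed no relation to the other genes that the test could detect. Its deviations had the sign of those of DRC7 in 5 of 12 cows, with r = -0.020 (permutation test within groups, p = 0.924, adjusted p = 0.924) and rho = -0.30 (permutation p = 0.392, adjusted p = 0.403). With KIFC3 the signs were the same in 5 of 12 cows, r was -0.045 (permutation p = 0.865, adjusted p = 0.924) and rho was -0.31 (permutation p = 0.403, adjusted p = 0.403). Leaving out subfertile cow 2 and fertile cow 2 gave r = 0.015 and -0.089 for these pairs. Within the 6 subfertile cows r was -0.41 with DRC7 (exact permutation p = 0.372) and -0.31 with KIFC3 (exact permutation p = 0.600), and within the 6 fertile cows 0.21 with DRC7 (exact p = 0.629) and 0.086 with KIFC3 (exact p = 0.899). Spearman's rho of NLRC5 with DRC7 in the 6 subfertile cows was -0.83 (exact permutation p = 0.058, adjusted over 6 relations p = 0.308). Without the 2 cows farthest from the median, r with DRC7 was -0.79 in subfertile and -0.42 in fertile cows. With KIFC3 it was then -0.68 in subfertile and -0.73 in fertile cows. In the cluster of 8 cows described above, r of NLRC5 was -0.67 with DRC7 and -0.22 with KIFC3. These negative values rest on few cows and are given without a test.

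The cows themselves show the difference. Subfertile cow 2 was at 0 in NLRC5 and the highest cow of all in DRC7. Fertile cows 1 and 5 were at 95.9 and 97.6% in NLRC5 and at 0 and 0.66% in DRC7. Fertile cow 2 was near 0 in both genes. Subfertile cow 6 was near 0 in NLRC5 and at 47.9% in DRC7.

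**Figure D4:**
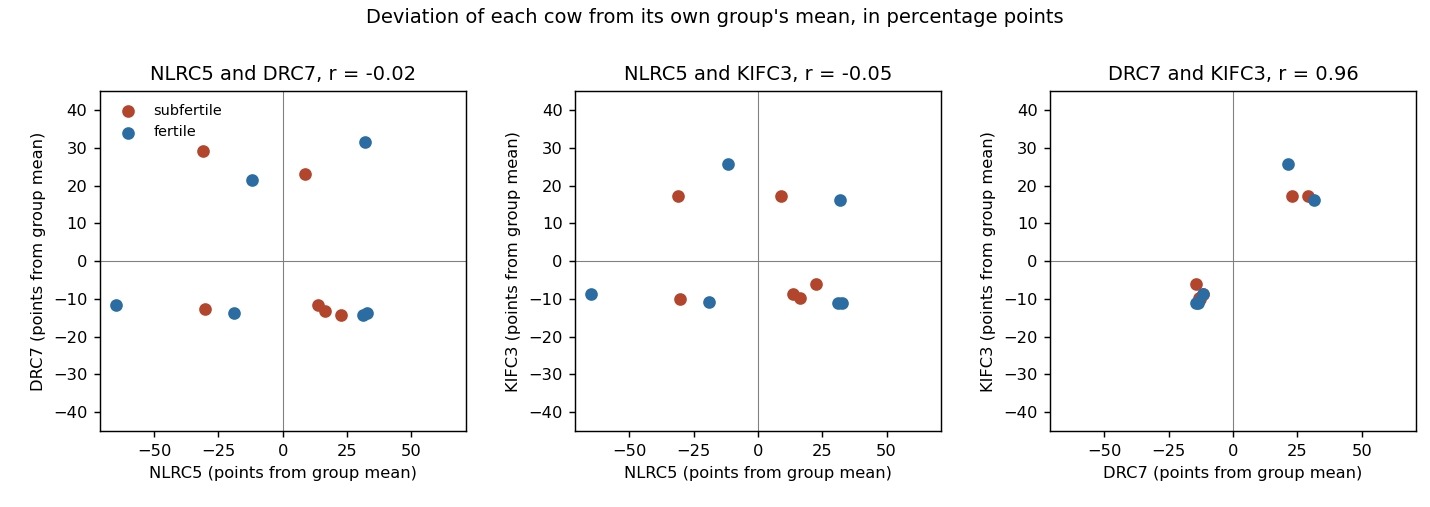
Deviation of each cow's gene mean from the mean of its own group, in percentage points, for each pair of genes (12 points a panel, subfertile cows red, fertile cows blue). DRC7 and KIFC3 form 2 separate clusters of 4 and 8 cows on the rising diagonal (r = 0.96), and NLRC5 shows no such order with DRC7 (r = -0.020) or KIFC3 (r = -0.045).

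Split by direction, the levels of DRC7 and KIFC3 were closer still. Over 12 cows, described without a test, deviations of the 31 other DRC7 sites had r = 0.992 with those of the 78 higher KIFC3 sites. The cow means of these DRC7 and KIFC3 sites differed by 1.82 points on average and by 5.93 points at most.

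The shared pattern was followed from 25672534, in the 3′ UTR of ADGRG3, to 25801540, the last KIFC3 site, upstream of that gene. The ends of this stretch of 129007 bp were thus set by the gene symbols. Inside it, 44581 bp hold no DRC7 or KIFC3 site. Of the 125 DRC7 and KIFC3 sites in it, 98 had r above 0.8 with the joint cow pattern of the 31 DRC7 and 78 KIFC3 sites and 2 had r below -0.8. Those sites make up most of the pattern they are set against, so the count describes how even the stretch is. The last site, at 25801540, had r = -0.74 with the joint pattern. None of the 5 sites in the 50 kb before the stretch or of the 3 sites in the 50 kb after it passed 0.8 in either direction. Nor did any of the 22 sites between NLRC5 and this stretch, or of the 176 sites after it. Of the 122 sites before NLRC5, 1 had r above 0.8 and 1 below -0.8.

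The NLRC5 pattern was followed in the same way. Of its own 12 sites, 12 had r above 0.8 with the gene's cow means. None of the 122 sites before the first NLRC5 site passed 0.8 in either direction, and the 73 of them within 50 kb had a median r of -0.31. Of the 22 sites between NLRC5 and the DRC7 and KIFC3 stretch, 2 had r above 0.8 and 2 below -0.8. The 2 below, named after their values were seen, were the CPNE2 site at 25163740 (r = -0.91) and the ADGRG3 site at 25652104 (r = -0.82). None of the 125 DRC7 and KIFC3 sites of the stretch passed in either direction, and of the 176 sites after it 0 had r above 0.8 and 3 had r below -0.8. The 2 above lie among the 5 sites in the 50 kb after the last NLRC5 site, whose median r was 0.75. These 5 sites carry the symbol of the microRNA gene MIR2285N-3, which lies within NLRC5, and they lie in NLRC5 introns. Their mean was 49.2, 7.50, 34.5, 41.0, 66.3 and 50% in subfertile cows 1 to 6, against 96.0, 22.5, 96.5, 51.7, 95.4 and 66.9% in fertile cows 1 to 6, and their r with the NLRC5 means was 0.86. Subfertile cow 6, near 0 at the NLRC5 sites, averaged 50% over these. That average mixes unlike sites, which singly had r = 0.068, 0.54, 0.96, 0.93 and 0.75 with the NLRC5 means.

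The pattern changed before the first NLRC5 site, which itself lies 11306 bp before the start of the gene. The last site named MIR2285G-1, a microRNA gene, lies 7232 bp before the first NLRC5 site. The 47 higher sites of that symbol averaged 48.0, 89.3, 47.6, 0.34, 47.0 and 41.2% in subfertile cows 1 to 6, against 0.14, 13.0, 0.17, 40.7, 0.47 and 0% in fertile cows 1 to 6. Their deviations had r = -0.42 with NLRC5 and 0.55 with the 31 DRC7 sites, described over 12 cows. Fertile cows 3 and 5, at about 97% in NLRC5, were near 0 here. The 21 higher sites of HERPUD1, a gene of protein quality control in the endoplasmic reticulum, had r = 0.978 with those of MIR2285G-1.

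Values were also taken for 35 other genes with a symbol and sites within 1 Mb of the members. Of these, 1 had r above 0.8 with NLRC5 (MIR2285N-3). The median r over the 35 genes was 0.024 with NLRC5, 0.093 with DRC7 and -0.010 with KIFC3. Averaged over its 3 sites, CPNE2, a gene of a calcium-dependent membrane-binding protein, had r = -0.81 to NLRC5, but the sites taken singly had r = 0.21, -0.37 and -0.91. CCDC113, a ciliary protein gene, had r = -0.77 to DRC7 and -0.81 to KIFC3 over 24 sites. That average mixes 8 higher and 16 lower sites, whose r with the joint pattern of DRC7 and KIFC3 ran from -0.71 to 0.76. Of the adhesion receptor genes before DRC7, ADGRG1 had r = -0.77 to DRC7 from 1 site, ADGRG5 0.55 from 1 site and ADGRG3 0.33 from the 3 sites under its own symbol. The 5 sites in the ADGRG3 3′ UTR, which carry the DRC7 symbol, had r from 0.85 to 0.94 with the joint pattern of DRC7 and KIFC3, so the symbols do not mark where that pattern starts.

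**Figure D5:**
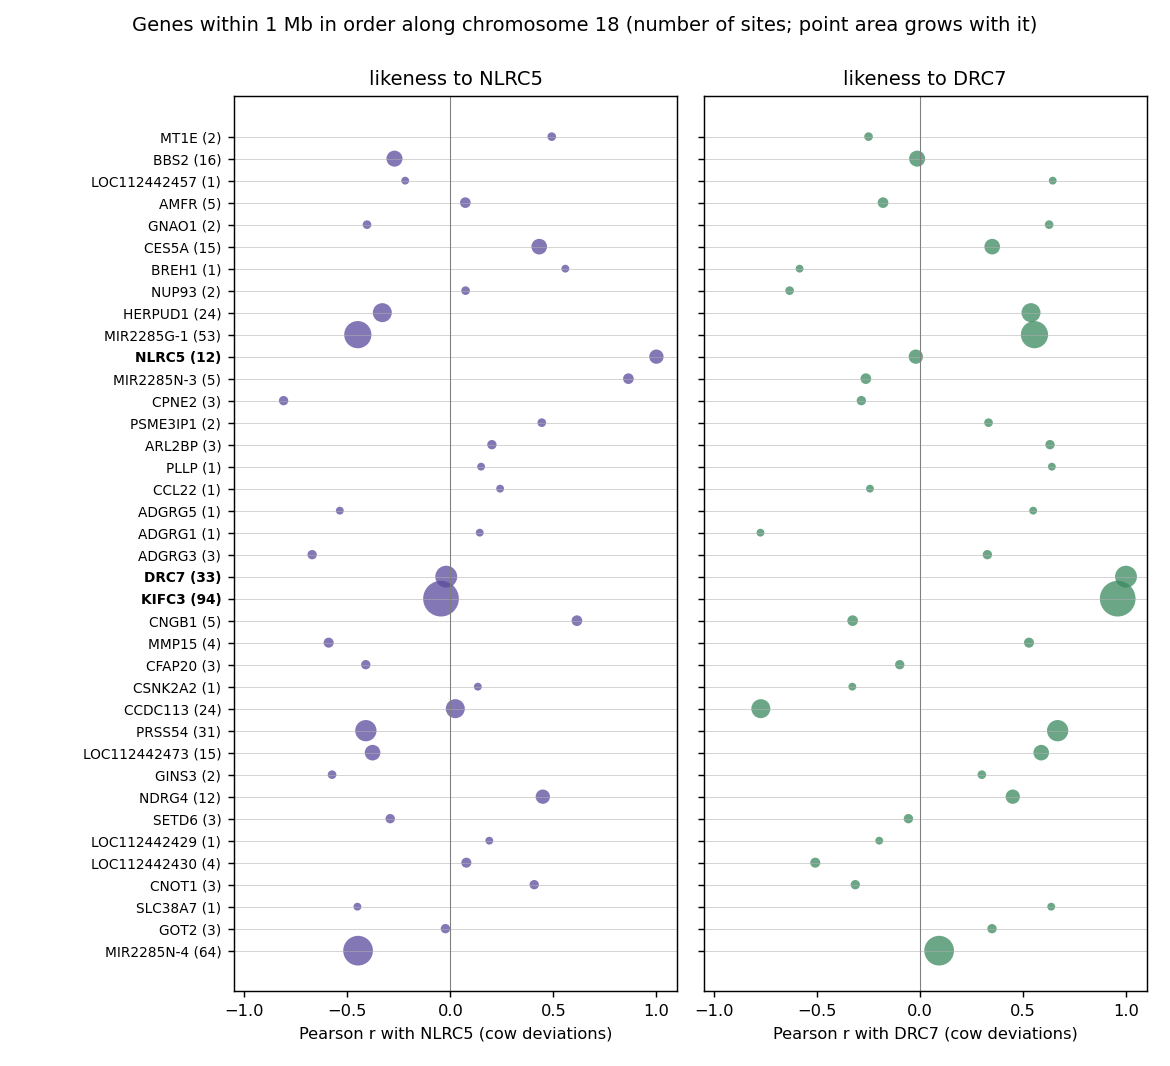
Pearson's r of cow deviations with NLRC5 (left panel, x axis) and with DRC7 (right panel, x axis) for NLRC5, DRC7, KIFC3 and 35 genes within 1 Mb of them, listed down the page in order along the chromosome with its number of sites, to which the area of the point is related. KIFC3 lies at 0.96 with DRC7 while NLRC5 lies at -0.02, and MIR2285N-3 alone exceeds 0.8 with NLRC5.

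Likeness of cow deviations was ranked over 8169 genes with at least 3 sites and a value in each cow. Among the genes ranked, those most like DRC7 were KIFC3 (r = 0.960), GSG1L of chromosome 25 (r = 0.824) and SUMF2 of chromosome 25 (r = 0.823). Those most like KIFC3 were DRC7 (r = 0.960), ARPC1B of chromosome 25 (r = 0.842) and TBX18 of chromosome 9 (r = 0.839). Those most like NLRC5 were SETD2 of chromosome 22 (r = 0.899), PLA2G12A of chromosome 6 (r = 0.897) and NLRC4 of chromosome 11 (r = 0.874). DRC7 ranked 4212 and KIFC3 4462 in likeness to NLRC5, near the middle of the list. Among so many genes and 12 cows high values arise on other chromosomes too, and the highest 1% began at 0.70 for NLRC5, 0.66 for DRC7 and 0.65 for KIFC3.

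Distance sets a scale for these values. Over chromosome 18, pairs of sites with a value in each cow had a median r of 0.89 in the same CpG, 0.83 up to 1 kb apart, 0.70 from 1 to 10 kb, 0.15 from 10 to 100 kb and 0.019 from 100 kb to 1 Mb. From 10 to 100 kb these chromosome pairs were widely spread, with 10th and 90th percentiles of -0.70 and 0.87 and a median absolute r of 0.54. Pairs of a DRC7 and a KIFC3 site 10 to 100 kb apart had a median of 0.81 over 1459 pairs, with percentiles of 0.39 and 0.93. That median lies inside the spread of the chromosome. The pairs more than 100 kb apart, 485 in number, had a median of -0.43, and the 12 lower distal KIFC3 sites lie at that distance. Pairs of an NLRC5 site with a DRC7 or a KIFC3 site had medians of -0.021 over 270 pairs and -0.023 over 720, like the 0.019 of other pairs at that distance. Pairs share cows and sites, so these are descriptions.

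Limma was applied to log2 ratios of methylated to unmethylated percent to describe the table. It passed 0 of 216990 sites (0.0%) at an adjusted p of 0.05 and so 0 of the 139 members, and the smallest adjusted p was 0.066. At an unadjusted p under 0.05 there were 114315 sites (52.7%). On plain percent values limma passed 1039 sites. As the sites were selected on the same contrast, these counts do not test the groups.

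Genes that work with the 3 members were described as lists. Of 31 genes of MHC transactivation and antigen presentation, the field of NLRC5, 17 had 146 deposited sites, 59 higher and 87 lower in subfertile cows, none passing limma. Most of the lower sites were in ERAP1, with 34, and ERAP2, with 32, both on chromosome 7. By gene mean 9 genes were higher and 8 lower. The median difference of the gene means was 1.04 points, against 2.16 points over all 12709 genes with a symbol, of whose sites 52.0% were higher. In this list BOLA-DRA, an MHC class II chain, stood at 87.4 ± 8.29% in subfertile cows and 48.9 ± 30.7% in fertile cows over 6 sites. BOLA, an MHC class I gene, stood at 79.1 ± 15.9% in subfertile cows and 41.1 ± 19.0% in fertile cows over 4 sites, and ERAP1, which trims peptides for class I, at 46.4 ± 43.2% in subfertile cows and 80.4 ± 23.7% in fertile cows over 34 sites (SD, n = 6 each). The genes of this field thus had differences in both directions.

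Of 17 NOD-like receptor genes, the family of NLRC5, 10 had 76 sites, with 52 higher and 24 lower and a median gene difference of 26.6 points, opposite in sign to NLRC5. NOD1, a sensor of bacterial cell wall fragments, stood at 71.4 ± 12.4% in subfertile cows and 36.0 ± 20.9% in fertile cows over 8 sites. NLRP9 stood at 83.7 ± 21.6% in subfertile cows and 54.6 ± 23.6% in fertile cows over 2 sites (SD, n = 6 each). NLRP6 stood at 81.0 ± 15.2% in subfertile cows (SD, n = 6) and 47.7 ± 7.77% in fertile cows (SD, n = 5) at 1 site.

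Of 13 genes listed for the nexin-dynein regulatory complex and the axoneme around it, 6 had 59 sites, with 30 higher and 29 lower and a median gene difference of 5.61 points. The list includes CFAP20, with 3 sites, and TTC29, with 18 sites, which are axonemal proteins and not subunits of the complex. DRC1, a subunit needed to assemble the complex, stood at 46.7 ± 23.2% in subfertile cows and 77.0 ± 19.8% in fertile cows over 13 sites, opposite to DRC7. DRC3 stood at 69.8 ± 28.1% in subfertile cows and 40.3 ± 34.9% in fertile cows at 1 site, and FBXL13 at 55.7 ± 14.3% in subfertile cows and 46.9 ± 13.2% in fertile cows over 21 sites (SD, n = 6 each). Of 42 kinesins and partners of KIFC3 at junctions, 26 had 315 sites, with 193 higher and 122 lower and a median of 6.17 points. The kinesin KIF22 stood at 64.7 ± 42.4% in subfertile cows and 27.8 ± 21.9% in fertile cows over 2 sites. KIF14, a kinesin of cytokinesis, stood at 42.6 ± 19.4% in subfertile cows and 75.9 ± 8.49% in fertile cows, and KIF2B at 63.1 ± 33.5% in subfertile cows and 93.2 ± 7.89% in fertile cows, at 1 site each (SD, n = 6 each). None of the sites in these lists passed limma.

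Blood holds several cell types, and markers of each were described the same way because methylation can differ between the cell types of whole blood. T cell markers had sites in 3 of 5 genes, 16 higher and 36 lower, with a median gene difference of -15.8 points, and B cell markers in 5 of 5 genes, 18 higher and 25 lower, with a median of -3.02 points. Natural killer markers had sites in 5 of 5 genes, 21 higher and 26 lower, with a median of 13.9 points. Monocyte markers had 3 sites in 2 of 3 genes, with a median of -2.34 points, and neutrophil markers 2 sites in 2 of 5 genes, with a median of -5.45 points. Gene differences ran from -44.9 to 33.7 points among B cell markers and from -37.5 to 39.4 points among natural killer markers. A table of selected differences cannot check the labelled tissue, and the part of cell composition in the member levels was not tested.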

How the data were processed

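Per the labels' protocols, DNA came from 1 mL of blood per cow and unmodified cytosines were deaminated by enzymes before sequencing. Per the submitters' processing notes, ChIPseeker 1.32.1, DRAGEN, Bismark and fastp 0.23.1 were among the tools, on genome build ARS-UCD1.2. The sources used here do not give the aligner settings, a read minimum or the test behind the calls. Per the file headers, the authors deposited for each site the percent methylated in each cow, a p-value and q-value, and their difference, a score in percentage points. Every deposited site had an absolute difference above 25 points, so the percent values start from a selection on the group contrast.

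From these, the sites of a gene were averaged per cow, without imputing missing values, and cow deviations from group means were correlated in Python 3.11.15 with numpy 2.4.6 and scipy 1.17.1 by permutation within groups, with Benjamini-Hochberg adjustment over 3 pairs. The correlations within the cluster of 8 cows were added after the clusters were seen. A logistic model on read numbers had been planned; as the file holds percent values only, limma 3.58.1 in R 4.3.3 was run on log2((percent + 5)/(100 − percent + 5)) with the group term alone, after a check on simulated data. Members and gene lists were chosen with earlier results of these data known. Every NLRC5 site was eligible to be named, and for DRC7 and KIFC3 the 6 sites with the largest absolute difference and the site farthest from them; likeness names the 3 closest genes ranked, and each gene list names the 3 with the largest difference. Other member sites named were picked once their values had been seen. The likeness ranking and the counts of neighbouring genes and sites leave out 1 gene, which is not reported here. Depth per sample is unknown, so no interval is given. Permutation p-values give how often shuffling these cows within groups gave a correlation at least as large in size. Alternatives covered the sites averaged, the summary, the scale, thresholds and each cow left out.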

Additional observations from a re-analysis of the deposited data

Results flagged for a closer look

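In 6 of 64 groups tested, among gene means and named sites, 1 cow stood apart from the rest of its group by a Dixon test at 95%. Of these groups, 55 had values in 6 cows and 9 in 5 cows. The test's chance rate of about 1 in 20 is no measure here, because many values are exact zeros and the groups reuse the same cows. At the lower KIFC3 sites fertile cow 3 averaged 40.8%, and the next lowest fertile cow 89.7%. At the KIFC3 site 25801540 the lowest fertile cow, again cow 3, was at 57.9% and the next at 94.1%. At the KIFC3 site 25792273, where fertile cow 3 had no value, subfertile cow 5 was at 100% and the next subfertile cow at 33.3%. At the KIFC3 site 25734938 fertile cow 4 was at 18.2% and the other 4 fertile cows with a value at 0. At the DRC7 promoter site 25678264 fertile cow 3 was at 58.8% and the other 5 fertile cows at 0. At the DRC7 promoter site 25680493 fertile cow 4 was at 33.3% and the other 4 fertile cows with a value at 0. These fertile cows are the ones in the middle at most DRC7 and KIFC3 sites, and subfertile cow 5 is the subfertile cow that is high at the lower KIFC3 sites. No cause was tested.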

How the results depend on the processing

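Of 144 recomputed values, 118 kept their direction and side of the threshold. The DRC7 and KIFC3 correlation lay between 0.95 and 0.99 with each cow left out in turn (adjusted permutation p from 0.011 to 0.028). It was 0.28 on promoter sites alone (adjusted permutation p = 0.793), where KIFC3 holds 2 higher and 2 lower sites. With the lower KIFC3 sites alone it turned to -0.77 (adjusted permutation p = 0.012); that choice was made after seeing the data. The NLRC5 correlations lay between -0.26 and 0.17 over these settings, and their sign changed at some of them. With DRC7 they were 0.070 on promoter sites, 0.044 on genic sites, 0.0030 with medians over sites, 0.010 without the pair of DRC7 sites in ADGRG3 (chosen after seeing the data), and from -0.25 to 0.17 with each cow left out. With KIFC3 they were -0.23 on promoter sites (adjusted permutation p = 0.793), 0.022 on genic sites and 0.0016 with medians. They were 0.027 with the lower KIFC3 sites alone, and from -0.26 to 0.10 with each cow left out. The cause of all these sign changes, and of the changed counts given next, was not tested. The mean difference of KIFC3 was 3.38 points on promoter sites and 46.3 points with medians over sites. With each cow left out the mean differences ran from 40.6 to 52.7 points for DRC7, 27.1 to 35.7 for KIFC3 and -46.8 to -27.3 for NLRC5. With strands averaged, groups did not overlap at 3 DRC7 positions, but averaging joins 26 of the 33 DRC7 sites into 13 positions. For KIFC3 there was 1 such position, where 84 of the 94 sites join into 42. Among the 72 KIFC3 sites with a value in every cow there were 3. No share over the deposited table was taken at these settings, so nothing is read from these counts. Limma passed 1039 sites on plain percent and 0 with 1 point added (103268 sites at an unadjusted p under 0.05). Without sites that have a cow under 10% and a cow over 80%, no NLRC5 site was left to give a value. No paired analysis was possible because the labels do not match cows of 1 group to cows of the other. Depth is unknown, the sites were preselected, and 12 cows of 1 farm limit what can be said of other herds.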
